A study of Caenorhabditis elegans with 9 samples.

Results

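A group of 52 *C. elegans* genes that are known only by a sequence name reached their highest level in whole worms at Day 15 of adulthood. A sequence name joins the clone on which a gene was found to a number, as in C27H5.6, and such a gene has not been given a name for a family or a phenotype. The members were chosen by their levels. The array annotation and the RefSeq gene table cover 17118 genes by at least 1 probe set that matches no other gene, and 6717 of them have only a sequence name. Of these, the 52 members had a mean log2 value of at least 6 at Day 15 and a Day 15 mean at least 2.5 above the larger of the L4 and Day 6 means, which is 5.66-fold. This difference is called the margin of a gene here. A further condition, that the L4 mean exceed the Day 6 mean by less than 3, removed no gene. Since the margins chose the genes, the levels at the 3 ages are given as a description, and no test of them is used as support.

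Wild type worms of the Bristol N2 strain, fed *E. coli* OP50, were measured on 9 GeneChip arrays. These were 3 each of L4 larvae, Day 6 adults and Day 15 adults. The replicates came from 3 independently propagated populations. Whether the same populations served all 3 ages is not stated. From the L4 stage on, the adults had been held on agar that contained FUdR at 50 µg/ml. This compound blocks DNA synthesis and prevents progeny, and no L4 larvae had been exposed to it. Adult age and time on the drug therefore cannot be told apart. Values are GCRMA log2 values, on which a difference of 1 is a change of 2-fold, and values under 4 lie near the background of the array. RNA of whole animals was measured, so a change in the number of cells of a type cannot be told apart from a change in RNA per cell. The number of arrays limits the precision.

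The last larval stage, L4, is a time of growth and of sperm production in hermaphrodites. Worms on FUdR are past their peak of egg laying at Day 6, and at Day 15 they are old animals with worn tissues, in which mortality has begun. No product names or roles of the 52 genes were looked up here. The genes are therefore ordered below by their levels, and roles are given only for named genes beside them. RefSeq lists 49 of the members as protein coding and 3 as pseudogenes, F10G7.6 and Y75D11A.1 among them. A pseudogene is a copy of a gene that is thought to have lost its function, and its transcript can resemble that of a working relative.

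All 52 genes had their 3 Day 15 arrays above each of the 6 other arrays, as 21.3% of the 11758 genes tested did. The distance between the lowest Day 15 array and the highest other array was between 1.03 (Y113G7C.1) and 4.82 (C27H5.6) on the log2 scale. In limma fits over all genes tested, all 52 passed the threshold (adjusted p under 0.05, at least 2-fold) for Day 15 above Day 6, against 16% of all genes, and for Day 15 above L4, against 32.3%. Nothing is read from these counts, since the rule fixed them. The group means had a median over the members of 3.50 in L4 larvae, 4.11 at Day 6 and 7.44 at Day 15. The median difference between Day 15 and Day 6 was 3.41 (lowest 2.53, highest 5.40), while the median over all genes tested was 0.00. With values under 4 set to 4, it was 2.91.

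**Figure D1:**
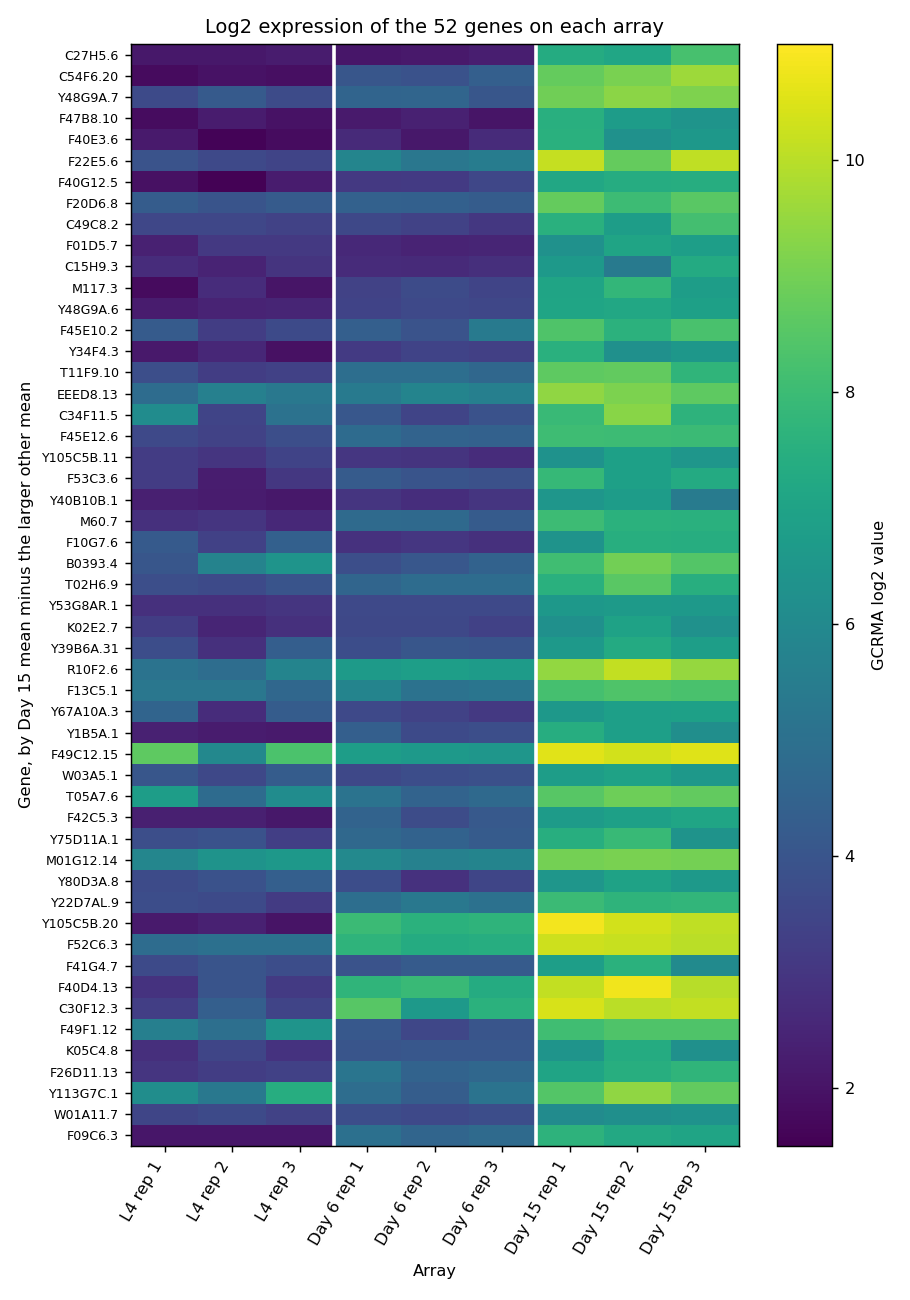
Heat map of GCRMA log2 values of the 52 genes (rows, by margin) on the 9 arrays (columns, L4, Day 6 and Day 15). Every row is brightest in the 3 Day 15 columns, and rows such as Y105C5B.20 and F40D4.13 are already bright at Day 6, at means of 7.74 and 7.67.

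C27H5.6 had the largest margin, 5.40. It read 2.11, 2.11 and 2.23 on the L4 arrays, 2.06, 2.14 and 2.30 at Day 6, and 7.33, 7.12 and 8.25 at Day 15. The first 6 values lie at background and do not separate L4 from Day 6, and all 3 Day 15 values lie well above it. Its Day 15 level was 11.8-fold above that of Day 6 with values under 4 set to 4. C54F6.20 gave 1.79, 1.95 and 1.89 in L4 larvae, 4.04, 3.89 and 4.39 at Day 6, and 8.74, 9.08 and 9.59 at Day 15. The L4 arrays lie at background and the Day 6 arrays at its edge, so that with values under 4 set to 4 the difference between Day 6 and L4 was 0.14. The Day 15 level was 31.9-fold that of Day 6 with the same floor, the largest such fold of the 52 genes. Y48G9A.7 stood at 3.62, 4.19 and 3.67 in L4 larvae, 4.56, 4.59 and 4.05 at Day 6, and 8.93, 9.34 and 9.17 at Day 15. The L4 and Day 6 arrays of this gene overlap, and the Day 15 arrays lie close together (SD 0.21).

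The next genes by margin were at or near background before Day 15, except F22E5.6. F47B8.10 had 1.83, 2.21 and 1.96 in L4 larvae, 2.20, 2.36 and 2.04 at Day 6, and 7.50, 6.75 and 6.41 at Day 15. F40E3.6 had 2.19, 1.61 and 1.80 in L4 larvae, 2.64, 2.10 and 2.67 at Day 6, and 7.54, 6.29 and 6.57 at Day 15. Both were highest on the first Day 15 array, and both were near 7-fold above Day 6 with the floor, F47B8.10 by 7.40-fold and F40E3.6 by 6.96-fold. F40G12.5 differed from them by its even Day 15 level of 7.18, 7.40 and 7.42, after 1.92, 1.55 and 2.22 in L4 larvae and 3.06, 3.13 and 3.54 at Day 6. F22E5.6 read 3.94, 3.61 and 3.45 in L4 larvae, 5.81, 5.27 and 5.48 at Day 6, and 10.18, 8.74 and 10.08 at Day 15. It was the only one of the 12 genes with the largest margins whose Day 6 mean passed 5, and its second Day 15 array stood well below the others. F20D6.8 was close to 4 at both earlier ages (4.25, 3.97 and 4.24 in L4 larvae, then 4.44, 4.41 and 4.26 at Day 6) and had 8.76, 8.03 and 8.58 at Day 15.

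The other 4 of these 12 genes lay under 4 on all 6 arrays of the earlier ages. C49C8.2 gave 3.54, 3.52 and 3.37 in L4 larvae, 3.56, 3.36 and 3.03 at Day 6, and 7.52, 6.78 and 8.17 at Day 15. C15H9.3 gave 2.69, 2.45 and 2.94, then 2.68, 2.63 and 2.77, and at Day 15 6.6, 5.42 and 7.32, the widest Day 15 spread of all members (SD 0.96). For both genes the second Day 15 array was the lowest. F01D5.7 had group means of 2.84, 2.51 and 6.71 in L4 larvae, Day 6 and Day 15 worms, and M117.3 had 2.18, 3.49 and 7.21.

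**Figure D2:**
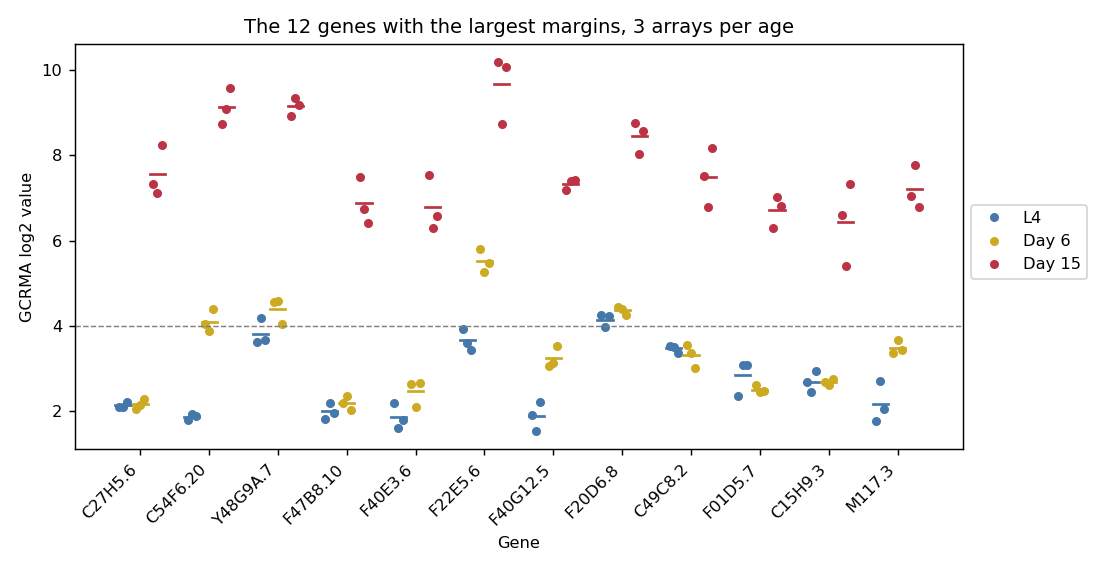
GCRMA log2 values of the 12 genes with the largest margins on each array (points) with the mean of each age (bars), and a dashed line at 4, below which values are near background. No Day 15 point of a gene overlaps its earlier points, while the L4 and Day 6 points of C27H5.6, F47B8.10 and C49C8.2 lie together.

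Sorted by their levels before Day 15, the genes form 4 groups. The first holds 21 genes whose L4 and Day 6 means were both under 4, and for 15 of these every one of the 6 arrays was under 4. Their Day 15 means had a median of 6.78. A second group of 19 genes was under 4 only in L4 larvae and had a median Day 15 mean of 7.86. C34F11.5 and F49F1.12 were under 4 only at Day 6. The last 10 genes were at 4 or above at all ages, with a median Day 15 mean of 8.95 and a median margin of 2.89. This last group holds 3 of the 6 genes with the highest Day 15 means, F49C12.15, F52C6.3 and R10F2.6, and the other 3, Y105C5B.20, F40D4.13 and C30F12.3, were under 4 in L4 larvae.

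A rise only by Day 15 did not hold for all members, since the rule sets no upper limit to a rise between L4 and Day 6. The difference between Day 6 and L4 ran from -1.78 (F49F1.12) to 5.56 (Y105C5B.20), with a median of 0.65. By limma, 21 genes were higher at Day 6 than in L4 larvae (29.3% of all genes tested were), 4 were lower (against 24.6%) and 27 passed neither threshold. With values under 4 set to 4, the counts were 7 higher and 1 lower, so most of these calls were lost where values near background were levelled. Both means enter the rule, and nothing is read from the counts.

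Y105C5B.20 had the largest difference between the earlier ages. It read 2.17, 2.38 and 1.99 in L4 larvae, 7.99, 7.55 and 7.67 at Day 6, and 10.85, 10.36 and 10.09 at Day 15. The step up to Day 6 (5.56, standard error 0.23) was larger than the step after it (2.70, standard error 0.23), although the first starts at background. F40D4.13 behaved alike, with 2.90, 3.98 and 3.10, then 7.72, 7.94 and 7.34, and 10.12, 10.80 and 9.97. C30F12.3 had 3.26, 4.36 and 3.46 in L4 larvae, 8.55, 6.6 and 7.56 at Day 6, and 10.43, 10.01 and 10.12 at Day 15. Its Day 6 arrays had the widest Day 6 spread of the members (SD 0.98) and still lay below all Day 15 arrays and above all L4 arrays. F09C6.3 had 2.08, 2.09 and 2.09, then 5.0, 4.59 and 4.78, and 7.64, 7.25 and 7.06. Its L4 values lie at background, and with values under 4 set to 4 the difference between Day 6 and L4 was 0.79, smaller than the 2.53 between Day 15 and Day 6. F52C6.3 gave 4.86, 4.99 and 5.01 in L4 larvae, 7.69, 7.33 and 7.42 at Day 6, and 10.29, 10.21 and 10.01 at Day 15. Its difference was 2.53 between Day 6 and L4 and 2.69 between Day 15 and Day 6, with no overlap between ages and no mean under 4.

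The opposite course, with a dip at Day 6, was seen in fewer genes. F49F1.12 had 5.6, 4.97 and 6.41 in L4 larvae, 4.13, 3.51 and 3.99 at Day 6, and 8.08, 8.38 and 8.37 at Day 15. Y113G7C.1 had 6.14, 5.29 and 7.42, then 4.91, 4.31 and 5.13, and 8.45, 9.43 and 8.73. For both, all Day 6 arrays lay below all L4 arrays. T05A7.6 read 6.77, 4.83 and 6.12 in L4 larvae, 5.10, 4.54 and 4.76 at Day 6, and 8.52, 8.89 and 8.70 at Day 15, and its L4 and Day 6 arrays overlap. B0393.4 read 4.06, 5.76 and 6.41, then 3.80, 4.08 and 4.48, and 8.07, 8.96 and 8.47. Its first L4 array stands far below the others, and the ages overlap again. B0393.4 passed no threshold between Day 6 and L4 (adjusted p = 0.06, limma). The pseudogene F10G7.6 was called lower at Day 6 than in L4 larvae (adjusted p = 0.023, limma). It had 4.19, 3.35 and 4.41 in L4 larvae and 2.87, 3.01 and 2.82 at Day 6, all at or near background. The count of genes lower at Day 6 depended on single arrays. It was 7 without the second L4 array and 1 without the third L4 array or without the first Day 6 array.

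**Figure D3:**
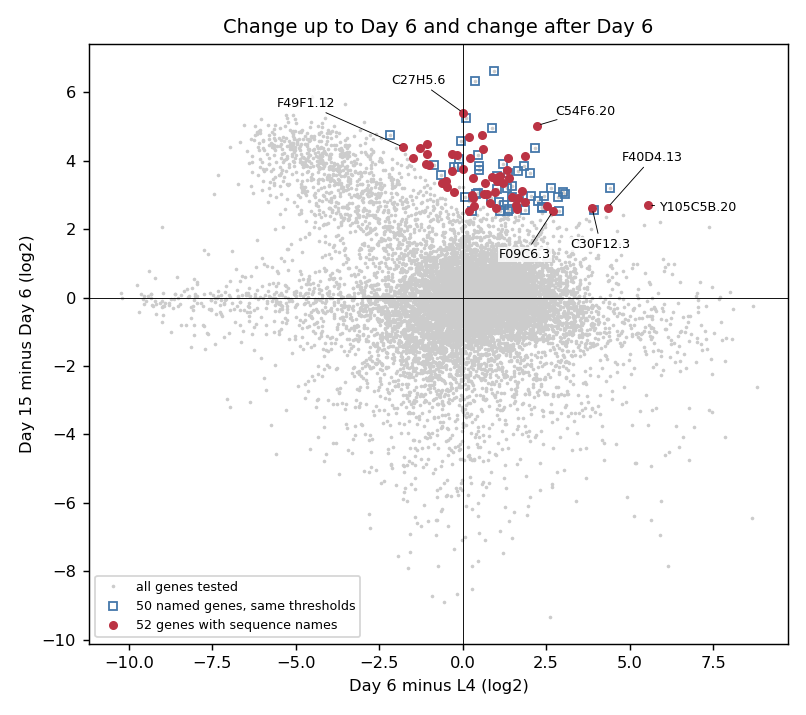
Difference between Day 6 and L4 (x axis, log2) and between Day 15 and Day 6 (y axis, log2) for the genes tested (grey), the 52 members (filled circles) and 50 named genes that meet the same thresholds (open squares). The members lie at 2.53 or above on the y axis by choice and spread from -1.78 to 5.56 on the x axis, with Y105C5B.20 at the right edge.

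The L4 arrays of some genes lay far apart. In 6 genes the L4 SD was over 0.9, and in 5 of them the second L4 array was the lowest. F49C12.15, with the highest Day 15 mean of the group (10.58, 10.34 and 10.54), had 8.63, 5.93 and 8.30 in L4 larvae (SD 1.47) and 6.77, 6.59 and 6.50 at Day 6. On its second L4 array it was thus below Day 6, and on the others above it. C34F11.5 had 6.11, 3.45 and 5.07 in L4 larvae (SD 1.34), 4.08, 3.44 and 3.90 at Day 6, and 7.93, 9.31 and 7.66 at Day 15. Y67A10A.3 had 4.56, 2.71 and 4.28, then 3.61, 3.38 and 3.08, and 6.56, 6.85 and 6.89. The second L4 array was at least 0.5 below both others in 9 of the 52 genes (17.3%) and in 19.6% of all genes tested. The median L4 SD was 0.32 for the members and 0.41 for all genes tested.

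Markers of sperm moved with these genes between Day 6 and Day 15 and are given here for that reason. Of 12 sperm genes on a list from general knowledge, 7 were tested, and all 7 were higher at Day 15 than at Day 6 by limma (16% of all genes tested were), with a median change of 2.96 and a range from 1.67 to 3.93. When marked probe sets, which may match several transcripts, were left out, only 4 genes of the list had a probe set to test, and all 4 rose. The sperm phosphatase gene gsp-3, chosen after its values were seen, had 11.40, 11.38 and 11.67 at Day 15, against 8.32, 7.15 and 7.18 at Day 6 (difference 3.93, standard error 0.42, adjusted p = 7.8e-05, limma). Its only probe set is a marked one, so gsp-3 is not among these 4 genes and its values may hold RNA of other genes. On the arrays, the median of the 7 genes was 9.90, 8.52 and 10.13 in L4 larvae, 7.13, 7.14 and 7.18 at Day 6, and 8.85, 9.45 and 9.36 at Day 15. Their summed level on the linear scale was 7108, 13151 and 12877 in L4 larvae. It was 1373, 804 and 863 at Day 6, and 8165, 9547 and 9848 at Day 15. On the second L4 array the median of the list was thus at its L4 lowest and the sum at its L4 highest. The lowest value of any of the 7 on any array was 4.34. Unlike the median of the sperm list, the median over the members was lowest in L4 larvae, where it was between 3.37 and 3.58 on each array. Within the sperm list, spe-44 alone had its lowest mean in L4 larvae (6.28, against 6.84 at Day 6 and 8.51 at Day 15). The 6 genes with a wide L4 spread came closer to the median of the sperm list. Their own median was 6.12, 5.06 and 6.27 in L4 larvae, 4.50, 4.20 and 4.62 at Day 6, and 8.26, 9.14 and 8.59 at Day 15. These 6 were chosen by their L4 spread, which favours genes above background in L4 larvae, so their L4 level may follow in part from that choice. The part of sperm RNA in the members' levels was not tested.

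Between Day 6 and Day 15, 16% of all genes tested rose by limma and 17% fell. Of 13 intestine genes tested 9 fell and none rose, and of 9 body wall muscle genes 6 fell and none rose. Among 9 neuronal genes 2 fell, among 7 genes of the cuticle-forming epidermis 2 fell, and none of either list rose. Of 8 germ line genes 1 rose, and of 12 oocyte and eggshell genes none passed the threshold. No gene passed it among 3 tested of an early embryo list, and of 9 stress genes 1 rose and 3 fell. The median difference of the stress list between Day 15 and Day 6 was 0.87, with a range from -2.64 to 3.92. The heat shock gene hsp-12.6 rose (difference 3.92, standard error 0.34, adjusted p = 2.2e-05, limma) and is one of the named genes that meet the thresholds of the members. Other heat shock genes of the list differed in their course. The means of hsp-70 were 10.22 at Day 15 and 7.87 at Day 6 (difference 2.35, standard error 1.23, adjusted p = 0.15, limma). Those of hsp-16.2 were 10.25 at Day 15 and 8.41 at Day 6 (difference 1.84, standard error 0.96, adjusted p = 0.15, limma). The means of hsp-16.41 were 8.29 at Day 15 and 5.25 at Day 6 (difference 3.04, standard error 1.13, adjusted p = 0.055, limma). The differences of hsp-70, hsp-16.2 and hsp-16.41 were large but uncertain. Smaller ones, of 0.87 in hsp-4 and 0.30 in hsp-6, passed no threshold. The 3 genes that fell were gst-4 (-2.64), sod-3 (-2.24) and hsp-60 (-1.25). The part of stress in the levels of the members was not tested. The median of an array ran from 5.42 to 5.73, and the share of its 22625 probe sets with a value of 4 or more ran from 59.8% to 61.6%.

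The members did not all vary alike among the Day 15 arrays. Their median Day 15 SD was 0.38, while it was 0.24 for the 5394 genes tested whose Day 15 means lay in the same range and 0.40 for 50 named genes that meet the same thresholds. The medians over the members were nearly equal on the 3 arrays, at 7.54, 7.56 and 7.50. In 9 genes (17.3%) the second Day 15 array stood at least 0.5 above both others, against 6.32% of the genes in the same range. Among the 50 named genes it was 6%. The 9 members are C34F11.5, F40D4.13, F41G4.7, K02E2.7, K05C4.8, M117.3, R10F2.6, T02H6.9 and Y113G7C.1. In 5 genes (9.62%, against 6.58%, and 16% of the named genes) the second array stood at least 0.5 below both. These were C15H9.3, C49C8.2, F20D6.8, F22E5.6 and F45E10.2. The third Day 15 array stood at least 0.5 above both others in 4 genes (7.69%, against 1.45%, and 6% of the named genes). These were C15H9.3, C27H5.6, C49C8.2 and C54F6.20. It stood at least 0.5 below both in 5 genes (9.62%, against 4.39%, and 8% of the named genes). The first Day 15 array stood that far above both others in 5 genes (9.62%, against 4.1%, and 18% of the named genes). It stood that far below both in 2 genes (3.85%, against 5.17%, and 4% of the named genes). T02H6.9 was high on the second array, with 7.54, 8.58 and 7.46 at Day 15 after 4.59, 4.86 and 4.86 at Day 6. F45E10.2 was low on it, with 8.40, 7.61 and 8.29 at Day 15 after 4.36, 3.93 and 5.42 at Day 6. Some genes were even across the 3 arrays. F45E12.6 had 8.04, 8.0 and 7.99 (SD 0.03), M01G12.14 had 9.0, 9.09 and 9.0 (SD 0.05), and Y53G8AR.1 had 6.55, 6.69 and 6.62 (SD 0.07).

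The remaining members had smaller margins or plain courses. Y34F4.3 had means of 2.21, 3.27 and 6.78 in L4 larvae, Day 6 and Day 15 worms, T11F9.10 had 3.46, 4.85 and 8.36, and EEED8.13 had 5.26, 5.58 and 9.07. Of these, only EEED8.13 was above 4 at all ages. Y105C5B.11 had means of 3.19, 2.88 and 6.58, Y40B10B.1 of 2.22, 2.89 and 6.24, and K02E2.7 of 2.85, 3.48 and 6.52, all at background before Day 15. M60.7 (2.79, 4.58 and 7.71), Y1B5A.1 (2.27, 3.93 and 6.83), F42C5.3 (2.26, 4.13 and 6.91), F26D11.13 (3.19, 4.81 and 7.40) and K05C4.8 (3.04, 4.05 and 6.66) were under 4 in L4 larvae and under 5 at Day 6. With values under 4 set to 4, the difference between Day 6 and L4 in these 5 genes was between 0.05 (K05C4.8) and 0.81 (F26D11.13). W03A5.1 (3.96, 3.70 and 6.78), Y80D3A.8 (3.97, 3.36 and 6.70) and the pseudogenes F10G7.6 (3.98, 2.90 and 7.09) and Y75D11A.1 (3.65, 4.47 and 7.25) started from values near 4 in L4 larvae. R10F2.6 stood higher, at means of 5.26, 6.74 and 9.68.

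The threshold on the margin cut through a continuous range. Just inside it were Y113G7C.1 with a margin of 2.59, W01A11.7 with 2.54 (means of 3.50, 3.69 and 6.23) and F09C6.3 with 2.53. Just outside were K08H2.5 with 2.4967, C39B10.3 with 2.47 and W03F11.4 with 2.47. K08H2.5 had means of 5.13, 4.27 and 7.62, C39B10.3 of 3.99, 5.23 and 7.71, and W03F11.4 of 6.34, 4.62 and 8.81. A threshold of 2 would have taken 108 genes and one of 3 would have taken 28.

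More than 1 probe set was present on the array for 7 of the genes. In 2 of these 7, all probe sets stood well above background at Day 15. The second probe set of T05A7.6 had means of 7.57 at Day 15, against 3.27 at Day 6, and that of the third pseudogene had 6.15 at Day 15, against 3.68 at Day 6. F13C5.1, at 8.28 at Day 15 and 5.36 at Day 6 with the probe set used, had a second probe set at 4.93 at Day 15, against 2.64 at Day 6, and F49C12.15 one at 5.41, against 3.56. For the other 3 genes the further probe sets stayed at or near background. F53C3.6 read 7.88, 6.90 and 7.31 at Day 15 and 4.21, 3.97 and 3.86 at Day 6 with the probe set used, while its second one had means of 2.98 at Day 15 and 2.55 at Day 6. Y22D7AL.9 had a mean of 7.80 at Day 15, against 5.10 at Day 6, with a probe set marked as matching several transcripts, and 2.49, against 2.29, with one that carries no such mark. F41G4.7 had 6.80 at Day 15, against 4.12 at Day 6, with the probe set used, and 3.64 and 4.17 at Day 15 with the other 2. The values of F53C3.6, Y22D7AL.9 and F41G4.7 therefore rest on 1 probe set each. Marked probe sets stood for 7 of the 52 genes (13.5%), while over all genes tested they stood for 34.6%, and a level from such a probe set may hold RNA of related genes.

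**Figure D4:**
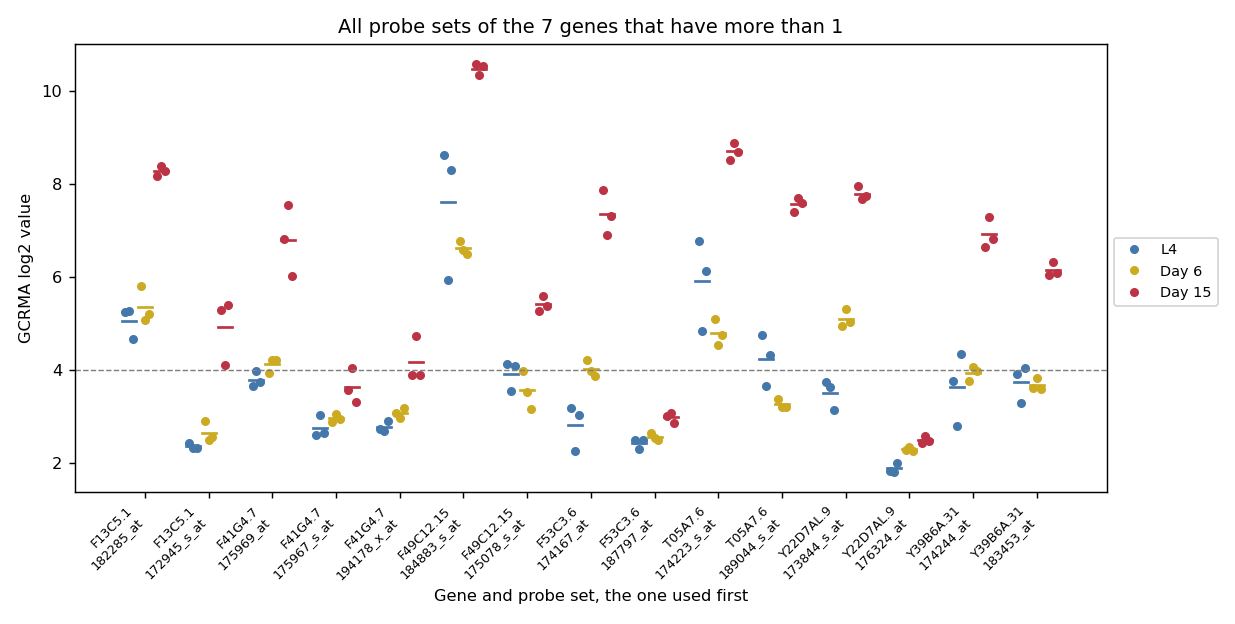
GCRMA log2 values on each array (points) and age means (bars) for every probe set of the 7 members that have more than 1, with the probe set used placed first for each gene and a dashed line at 4. The second probe set of T05A7.6 reaches 7.57 at Day 15, and those of F53C3.6 and Y22D7AL.9 stay at 2.98 and 2.49.

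The positions of the members in the genome were not used by the rule. RefSeq places 14 of them on chromosome V, 12 on II, 8 each on III and IV, 6 on X and 4 on I. The shares were 26.9% on V and 7.69% on I, against 23.2% and 14.2% of the 6693 genes with a sequence name that RefSeq places. On II, III, IV and X they were 23.1%, 15.4%, 15.4% and 11.5%, against 18.4%, 12.4%, 16% and 15.8%. Y48G9A.7 and Y48G9A.6, on chromosome III, were the only members within 10 kb of each other, with 1 gene between them. Y48G9A.6 had 2.21, 2.46 and 2.48 in L4 larvae, 3.42, 3.58 and 3.52 at Day 6, and 7.08, 7.19 and 6.89 at Day 15. The gene between, Y48G9A.11, was higher at Day 15 too, with 7.46, 7.43 and 7.57 at Day 15, against 5.75, 5.70 and 5.28 at Day 6 (difference 1.91, adjusted p = 0.0061, limma). It overlaps Y48G9A.7 in the annotation.

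The rule did not use the levels of genes next to the members. Up to 1 protein-coding gene on either side of each member was taken, which gave 56 tested genes that are not members. At Day 15, relative to Day 6, 15 of them rose (26.8%, against 16% of all genes tested), 7 fell (12.5%, against 17%) and 34 passed neither threshold, and their median change was 0.04. Of those that overlap the member 4 of 11 rose (36.4%), and of those that do not overlap it 12 of 46 rose (26.1%), with 1 gene counted in both. With up to 3 genes on either side, 33 of 172 rose (19.2%) and 30 fell (17.4%). Most neighbours thus did not rise with the member. At Y34F4.3 both neighbours went the other way. The claudin-like genes clc-24 and clc-23, named for a family of cell junction proteins, fell by 1.84 (adjusted p = 9.0e-05, limma) and by 3.43 (adjusted p = 1.5e-06, limma). The first loses its call with values under 4 set to 4. Of the 52 members, 13 overlap another protein-coding gene in the annotation, and whether RNA of that gene adds to the level of the member was not tested. C49C8.2 is one of these and overlaps fdr-1, which had 6.88, 6.08 and 6.33 at Day 15, against 10.70, 10.71 and 10.99 at Day 6. F40E3.6 overlaps F40E3.5, which rose to 10.06, 10.70 and 10.01 at Day 15, against 6.91, 6.55 and 7.01 at Day 6 (difference 3.43, adjusted p = 2.8e-05, limma). The neighbours named here were chosen after their values were seen.

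The neighbourhood of F52C6.3 held several genes with a like course. F52C6.4, next to it, had 8.20, 8.19 and 7.16 at Day 15, against 5.65, 5.65 and 5.62 at Day 6 (difference 2.21, standard error 0.29, adjusted p = 2.6e-04, limma). On the other side, F52C6.2 had 11.04, 10.97 and 11.10 at Day 15, against 9.79, 10.09 and 9.94 at Day 6 (difference 1.10, adjusted p = 0.017, limma), a call that ends without the first or the third Day 6 array or the third Day 15 array (highest adjusted p = 0.06). Further on, bath-7, of a family with BTB and MATH domains that links target proteins to a ubiquitin ligase, had 8.56, 9.11 and 8.30 at Day 15, against 6.31, 6.87 and 6.16 at Day 6 (difference 2.21, adjusted p = 2.5e-04, limma). Its relative bath-2 lies between bath-7 and F52C6.4 and had means of 9.06 at Day 15 and 8.92 at Day 6 (difference 0.13, standard error 0.39, adjusted p = 0.82, limma).

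**Figure D5:**
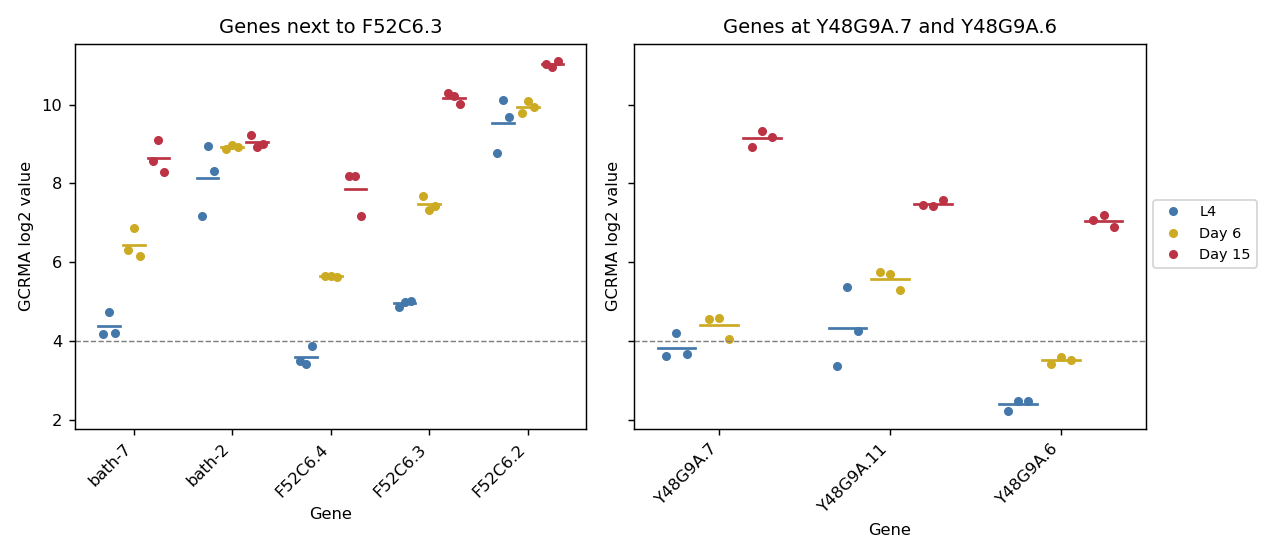
GCRMA log2 values on each array (points) and age means (bars) of genes in chromosome order around F52C6.3 (left) and from Y48G9A.7 to Y48G9A.6 (right), with a dashed line at 4. In the left panel bath-7, F52C6.4 and F52C6.3 climb from age to age and bath-2 is level between Day 15 (9.06) and Day 6 (8.92), and in the right panel all 3 genes are highest at Day 15.

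Other neighbours rose after Day 6 but had been high in L4 larvae. Near Y105C5B.20, Y105C5B.17 had 7.45, 8.45 and 7.91 at Day 15, against 4.44, 3.45 and 3.95 at Day 6 (difference 3.99, adjusted p = 2.4e-05, limma), with an L4 mean of 9.02. Near F20D6.8, F20D6.6 differed by 4.51 between Day 15 and Day 6 (adjusted p = 1.6e-05, limma), with an L4 mean of 10.07. C34F11.5 lies between msp-49 and msp-50, which encode major sperm proteins. The difference between Day 15 and Day 6 was 2.11 for msp-49 (adjusted p = 5.4e-04, limma) and 2.78 for msp-50 (adjusted p = 4.0e-05, limma), and the L4 means were 12.47 and 11.98. The msp genes are nearly identical to each other, so probe sets may share RNA among them. Their second L4 array was their highest, at 12.69 and 12.37, while C34F11.5 had its lowest L4 value there. By contrast, ptr-22, of the patched-related family, lies next to Y80D3A.8 and was lowest in L4 larvae. It had means of 1.99 in L4 larvae, 6.4 at Day 6 and 9.61 at Day 15.

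The 52 members are 0.774% of the genes with a sequence name, and the 50 named genes that met the same thresholds are 0.481% of 10401. The largest family among the named genes was fbxa, with 9 of 171 measured. It is a family of F-box genes, whose working members choose proteins for ubiquitin ligases. RefSeq lists fbxa-121, fbxa-122, fbxa-129 and fbxa-212 among the 9 as pseudogenes. Further families with more than 1 gene were his, the histones, with 3 of 26, and pals, with 3 of 23. The pals family includes genes known to respond to infection inside intestinal cells. All 3 histone genes were read by marked probe sets, which may share RNA among histone genes. There were also btb with 2 of 18, listed as pseudogenes, hsp, the heat shock proteins, with 2 of 21, and tsp, the tetraspanins, with 2 of 17. Of the hsp genes, hsp-12.6 was called higher at Day 15 than at Day 6. The other, hsp-16.41, was not (adjusted p = 0.055, limma). Among single genes were lys-3, a lysozyme gene, and fmo-2, a flavin monooxygenase gene, and also fog-3, which sets the sperm fate of germ cells, and fer-1, which sperm need to become motile. The named genes and families given here were picked after their values were seen. The margins of the named genes reached 6.62 in sri-39 and 6.32 in cpr-2, above the 5.40 of C27H5.6. All of these counts come from the thresholds that chose the genes, and no test was made of them.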

How the data were processed

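Total RNA of whole worms was hybridised to 9 GeneChip arrays. The authors obtained log2 expression values with GCRMA (version not given in the sources used here) and deposited 1 table of log2 values for 22625 probe sets. Present calls and centring of genes on their means, both part of the study's methods, were left out. The array annotation gives 1 gene for 20766 probe sets, and for 20701 the gene was found by its ID in the RefSeq table (WBcel235), which supplied current symbols and neighbours. The probe set with the highest mean stood for each gene. Genes whose mean reached 4 at any age entered the tests (11758 genes). Ages were compared with limma 3.58.1 in R 4.3.3, in 1 fit of 3 groups, with Benjamini-Hochberg adjustment. Figures were made with Python 3.11.15 and matplotlib 3.10.9. The procedure was tested on simulated data.

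The members and the lists were chosen with earlier results of these data known. Genes named in full are the 12 largest margins, the 6 highest Day 15 means, the 3 genes on each side of the threshold, the 4 largest differences in each direction between Day 6 and L4, members within 10 kb of each other, and members whose probe sets differ by over 2 between Day 15 and Day 6. No product names, promoters or proteins were used here. Other members are given by their means. The alternatives changed the filter, the probe set, the scaling, the floor, the variance model, the arrays in the fit, the threshold and the test, or left out an array. Arrays of the same number did not deviate together in all pairs (correlations between -0.06 and 0.19 over genes), so the number was not used as a block in the fit reported.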

Additional observations from a re-analysis of the deposited data

How the results depend on the processing

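All 52 genes stayed above Day 6 and above L4 in limma under each alternative that leaves out an array, changes the scaling, the floor, the variance model or the filter, and with the replicate block. Only 45 of them have a probe set that carries no mark and passed with it. The rule chose the members by these same differences, so nothing is read from how often they passed. The rule took between 48 and 62 genes with 1 array left out, 108 with a margin of at least 2, 28 with a margin of at least 3, and 34 with a Day 15 mean of at least 7. The median difference between Day 15 and Day 6 was 2.91 with values under 4 set to 4 and ranged from 3.33 to 3.44 with 1 array left out. The count of genes lower at Day 6 than in L4 larvae was 2 with quantile normalization, with array medians subtracted, with only the 2 ages compared, and with the methods' t-test at an unadjusted p. It was 1 with the floor at 4, at an adjusted p under 0.01, and with the methods' t-test after Benjamini-Hochberg adjustment, and from 1 to 7 with 1 array left out. The count higher at Day 6 was 7 with the floor. With the replicate number as a block (replicate block), it was 21 and the count lower was 5, and 1940 of all genes were higher at Day 15 than at Day 6, against 1929 without the block. Only 4 of the 9 arrays correlated best with an array of their own number. The causes of these shifts were not tested. With probe sets that carry no mark, Y22D7AL.9 changed by 0.20.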
